A study of Mus musculus with 14 samples.

Results

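The integrins of matrix adhesion described here are 10 genes: the alpha chains Itga1, Itga5, Itga6, Itga7, Itga8, Itga10, Itga11 and Itgav and the beta chains Itgb1 and Itgb5. They were chosen by symbol, from the probe sets that the array annotation assigns to only 1 gene, and each of the 10 had 1 such probe set, out of 19938 genes in all. Functional overload of the plantaris, a calf muscle, was produced in male C57BL/6J mice, 5 months old, by ablating the synergist muscles that share its work, and RNA was read on Affymetrix Mouse Gene 1.0 ST arrays. The samples were muscle at days 1, 3, 5, 7, 10 and 14 of overload and, as their baseline, muscle labelled day 0, for which the labels name no treatment. Each of these 7 days had 2 arrays, 1 of pooled right and 1 of pooled left muscles of 6 animals. The labels leave unsaid whether right and left muscles were taken from the same mice, and p-values measure the spread between pools, which may be technical. No sham operation is named, so surgery, elapsed time and load cannot be told apart.

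Integrins are receptors of an alpha and a beta chain that span the cell membrane, hold proteins of the extracellular matrix outside and grip the actin cytoskeleton inside through talin, kindlin and related adaptors. The beta chain Itgb1 can pair with each of the alpha chains listed, Itgb5 pairs with Itgav, and the alpha chain largely sets the ligand: fibronectin for Itga5, vitronectin, fibronectin and latent TGF-beta for Itgav, nephronectin and other RGD proteins for Itga8, collagens for Itga1, Itga10 and Itga11, and laminins for Itga6 and Itga7. In skeletal muscle the Itga7 and Itgb1 chains form the main laminin receptor of the fibre, concentrated at costameres and at the junction with tendon, and work beside the dystrophin complex.

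The 14 arrays had median intensities between 242.8 and 254.9. At day 1 the right and left pools lay under those medians for Itga8 (153.8 and 128.2), Itga10 (210.4 and 179.9) and Itga11 (241 and 191.1). Muscle fibre markers averaged between 13.21 and 14.04 on the log2 scale on every array. Transcripts of hepatocytes (9 markers measured) were uneven, with a mean of 12.26 in the right pool of day 1 and 12.19 in the left pool of day 0, against 8.01 to 11.18 in the other 12 arrays. Results at day 1 are therefore also given without those 2 pools. The left pool of day 0 is part of the baseline of every later day too. The values below are log2 intensities, and changes are differences between day means ± SE from 1 limma fit over all arrays. A gene is called where its adjusted p (Benjamini-Hochberg over all genes of that comparison) is under 0.05. Levels of different genes were read by different probes and are not set against each other. In such bulk tissue fewer cells of a type and less RNA per cell cannot be told apart.

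All 10 integrin genes changed over the time course in the moderated F test of limma, with adjusted p between 6.51e-09 for Itga5 and 7.83e-05 for Itga6, while 71.3% of all genes passed it. Against day 0, 4 integrin genes rose and 5 fell at day 1, 6 rose and 2 fell at day 3, 7 rose and 1 fell at day 5, and 9 rose and 0 fell at each of days 7, 10 and 14. The share of all genes called either way was 55.0%, 47.7%, 65.1%, 66.2%, 51.1% and 42.1% at those 6 days, the share called higher was 20.3%, 24.2%, 27.0%, 28.5%, 23.6% and 21.4%, and the share called lower was 34.7%, 23.4%, 38.1%, 37.8%, 27.5% and 20.7%. The median difference of the integrin genes over those 6 days was -0.03, 0.56, 0.74, 0.84, 0.69 and 0.68. Over all genes the median lay between -0.07 and -0.16. Changes past 2-fold were called for Itga5 at each of the 6 days, for Itgb1 and Itga11 (lower) at day 1, for Itga7 at days 3, 5 and 7, for Itgav at days 5 and 7, and for Itga11 (higher) at days 7, 10 and 14. Of all genes, 9.29%, 11.8%, 12.9%, 15.3%, 9.24% and 6.18% were called past 2-fold at the 6 days. Right and left pools moved the same way from day 0 in all but 1 of the 60 pairs of gene and day, the exception being Itga10 at day 5, which was not called. The 6 days of a gene share the same day 0 pools, so these pairs are not independent. The share over all genes was not computed, so the count is not particular to the integrins. In a fit of side, limma called 0 of 10 integrin genes (0 at an unadjusted p under 0.05) and 0% of all genes (586 at an unadjusted p under 0.05).

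**Figure D1:**
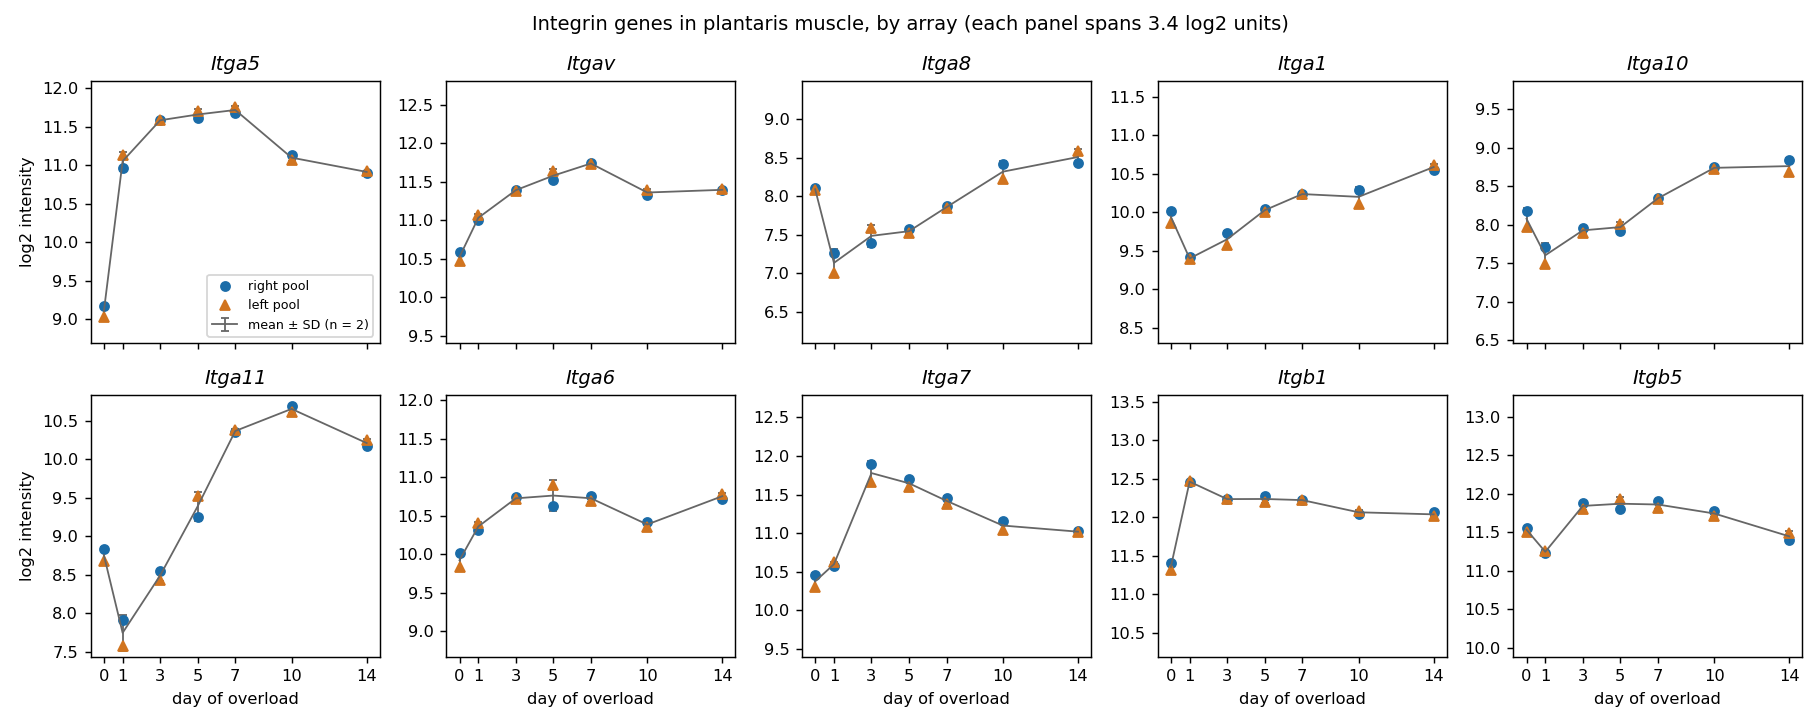
Log2 intensity (vertical axis, 3.4 log2 units in each panel) of the 10 integrin genes against the day of overload, with a circle for the right pool, a triangle for the left pool and a line through the day means ± SD (n = 2). Itga5 climbs between day 0 and day 1 and stays high, while Itga1, Itga8, Itga10 and Itga11 dip at day 1 and lie above their day 0 pools at day 14.

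The fibronectin receptor chain Itga5 had the largest rise of the 10 genes at each of the 6 days, with Itga11 nearest to it at day 10 (1.99 ± 0.08 for Itga5 and 1.90 ± 0.12 for Itga11). Its right and left pools read 9.18 and 9.03 at day 0, 10.97 and 11.14 at day 1, 11.58 and 11.59 at day 3, 11.61 and 11.71 at day 5, 11.68 and 11.75 at day 7, 11.13 and 11.07 at day 10, and 10.90 and 10.93 at day 14. Every pool of overloaded muscle lay above both day 0 pools, with no overlap. The level was 3.86-fold that of day 0 at day 1 (1.95 ± 0.08, adjusted p = 1.03e-08) and 6.12-fold at day 7 (2.61 ± 0.08, adjusted p = 1.33e-09), and it was still 3.50-fold at day 14 (1.81 ± 0.08, adjusted p = 3.72e-08). In order of level the days ran 7, 5, 3, 10, 1, 14 and 0. Of the 6 steps between neighbours in that order, day 3 over day 10 (adjusted p = 0.000985) and day 14 over day 0 passed the test, and both did so without any single array.

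Its ligand fibronectin, Fn1, was also higher at each day, by 1.19 ± 0.08 at day 1 and 2.11 ± 0.08 at day 7 (adjusted p = 4.33e-09). Fn1 was named here for that pairing after its values had been seen. Macrophages also carry Itga5, and their markers moved over the same days. Of 8 macrophage markers 7 rose at day 1 and 8 at each later day, with summed intensities of 4659 to 5355 at day 0, 20610 to 21250 at day 1, 33110 to 33740 at day 3, 30970 to 31400 at day 7 and 16150 to 17170 at day 14. None of the markers was at 0, since the lowest intensity on any array was 5.9. The part of macrophages in the Itga5 result was not tested.

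Itgav, the alpha chain of the vitronectin receptors and an activator of latent TGF-beta, rose more gradually. Its means for days 0, 1, 3, 5, 7, 10 and 14 were 10.52, 11.03, 11.39, 11.58, 11.74, 11.36 and 11.40, with SDs of 0.09 or less (n = 2 each). It passed the test at all 6 days, with differences between 0.51 ± 0.07 at day 1 (adjusted p = 0.000103) and 1.21 ± 0.07 at day 7 (adjusted p = 8.38e-08). Ordered by level the days ran 7, 5, 14, 3, 10, 1 and 0, and of the neighbours in that order day 10 over day 1 and day 1 over day 0 differed, again without any single array too.

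Itga8, the nephronectin receptor chain known from smooth muscle and from mesenchyme, was low early and high late. The right and left pools read 8.10 and 8.08 at day 0, 7.26 and 7.00 at day 1, 7.39 and 7.58 at day 3, 7.57 and 7.52 at day 5, 7.87 and 7.84 at day 7, 8.41 and 8.22 at day 10, and 8.43 and 8.59 at day 14. All pools of days 1 to 7 lay below both day 0 pools, and all pools of days 10 and 14 lay above them. The gene fell at day 1 (-0.96 ± 0.11, adjusted p = 1.80e-05), day 3 (-0.60 ± 0.11) and day 5 (-0.54 ± 0.11) and stood at -0.23 ± 0.11 at day 7 and 0.23 ± 0.11 at day 10, which did not pass. Leaving out either pool of day 1 turned day 7 into a call (adjusted p = 0.0476). It was higher at day 14 (0.42 ± 0.11, adjusted p = 0.00838), a call that ended without the left pool of day 14 (0.34, adjusted p = 0.0751). From highest to lowest the days ran 14, 10, 0, 7, 5, 3 and 1, and only day 3 over day 1 passed among neighbours (adjusted p = 0.0242). That step was lost when the left pool of either day was omitted, where the adjusted p reached 0.185.

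The ligand nephronectin, Npnt, was likewise lower at day 1 (-0.69 ± 0.13) and day 3 (-0.50 ± 0.13). It was higher at day 5 (0.92 ± 0.13), when Itga8 was lower, and at day 7 (1.43 ± 0.13, adjusted p = 2.14e-06), day 10 (1.14 ± 0.13) and day 14 (0.87 ± 0.13). Npnt was named for its pairing with Itga8, with its values known. Of 8 markers of smooth muscle and pericytes, all fell at day 1. At day 3, 1 was higher and 6 lower, at day 5 the counts were 3 and 4, at day 7 they were 4 and 4, at day 10 they were 3 and 3, and at day 14 they were 4 and 0. Their summed intensities were 18230 to 18450 at day 0, 9025 to 9232 at day 1, 11680 to 12160 at day 3, 18800 to 20160 at day 5, 22750 to 22820 at day 7, 21330 to 21940 at day 10 and 22260 to 23320 at day 14. At day 7 that sum was above day 0 in both pools, and Acta2 carried much of it. Acta2 read 12.15 and 12.24 at day 0 and 13.35 and 13.31 at day 7. In contrast, Rgs5 read 11.74 and 11.76 at day 0 and 11.15 and 11.18 at day 7. Whether these cells contribute to the Itga8 result was not tested.

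All 3 collagen receptor chains among the 10 genes fell at day 1, and all 3 were higher at days 7, 10 and 14. Itga2, a collagen receptor chain outside the 10, read 8.37 and 8.24 at day 0. It read 8.63 and 8.30 at day 1 and 8.75 and 8.81 at day 3. Itga11, the receptor chain for fibrillar collagen on fibroblasts, swung furthest of the 3. Its right and left pools read 8.83 and 8.68 at day 0, 7.91 and 7.58 at day 1, 8.54 and 8.44 at day 3, 9.25 and 9.52 at day 5, 10.35 and 10.38 at day 7, 10.69 and 10.61 at day 10, and 10.17 and 10.24 at day 14. Both pools lay below day 0 at days 1 and 3 and above it at every later day. At day 1 the level was 2.01-fold below that of day 0 (-1.01 ± 0.12, adjusted p = 2.73e-05), and at day 10 it was 3.72-fold above it (1.90 ± 0.12, adjusted p = 2.31e-07). Day 3 (-0.27 ± 0.12, adjusted p = 0.0888) did not pass, although it did without either pool of day 1 (adjusted p = 0.0445). By level the days ran 10, 7, 14, 5, 0, 3 and 1, and day 14 over day 5 (adjusted p = 0.000417), day 5 over day 0 (adjusted p = 0.00077) and day 3 over day 1 (adjusted p = 0.000609) were the neighbours that differed. Each of these calls was kept without any single array.

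Itga1, which prefers basement membrane collagen, had means for days 0, 1, 3, 5, 7, 10 and 14 of 9.94, 9.40, 9.65, 10.03, 10.24, 10.20 and 10.59, with SDs up to 0.13. It fell at day 1 (-0.54 ± 0.09, adjusted p = 0.000282) and rose by day 14 (0.64 ± 0.09, adjusted p = 0.000119). Its smaller differences hung on single pools. The call at day 3 (-0.29 ± 0.09) ended if either the day 0 right pool (adjusted p = 0.116) or the day 3 left pool (adjusted p = 0.131) was omitted. Omitting the day 0 left pool ended the calls at day 7 (0.29 ± 0.09, adjusted p = 0.0905 without it) and day 10 (0.26 ± 0.09, adjusted p = 0.174 without it), and that at day 10 also ended without the day 10 right pool (adjusted p = 0.223). Quantile normalization also ended the calls at day 7 (adjusted p = 0.0687) and day 10 (adjusted p = 0.0636). The days ran 14, 7, 10, 5, 0, 3 and 1 by level, and day 14 over day 7, day 0 over day 3 and day 3 over day 1 passed among neighbours. None of those 3 steps survived every omission of 1 array: the highest adjusted p was 0.062, 0.131 and 0.271.

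Itga10, a collagen receptor chain best known from cartilage, had means for days 0, 1, 3, 5, 7, 10 and 14 of 8.08, 7.60, 7.93, 7.97, 8.34, 8.74 and 8.76, with SDs up to 0.16. It fell at day 1 (-0.47 ± 0.10, adjusted p = 0.00156) and was higher at day 10 (0.66 ± 0.10, adjusted p = 0.000158) and day 14 (0.68 ± 0.10, adjusted p = 0.000172). The rise at day 7 (0.27 ± 0.10) was lost without the left pool of day 0 (adjusted p = 0.22), the right pool of day 7 (adjusted p = 0.108) or the left pool of day 7 (adjusted p = 0.0755). It was also lost under quantile normalization (adjusted p = 0.112). From high to low the days ran 14, 10, 7, 0, 5, 3 and 1. Day 10 over day 7, day 7 over day 0 and day 3 over day 1 passed among neighbours, each dependent on 1 array of the days compared, with highest adjusted p of 0.0973, 0.22 and 0.171.

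Of 10 collagen chains known as integrin ligands, 3 rose and 3 fell at day 1 (median 0.01), and all 10 were higher at each later day, with medians from 1.21 at day 3 to 2.49 at day 7. Examples at day 3 were Col3a1 (2.03 ± 0.08) and Col1a1 (1.97 ± 0.09). At day 3 Itga1 was lower, and Itga10 (-0.15 ± 0.10) and Itga11 had not passed the test. Of 7 markers of fibroblasts and fibro-adipogenic cells, which include Col1a1 of the collagen list, 1 rose and 5 fell at day 1, 3 rose and 3 fell at day 3, and 7 rose at day 14, with summed intensities of 19460 to 20610 at day 0, 15700 to 16780 at day 1, 23280 to 24320 at day 3, 37390 to 38000 at day 7 and 43170 to 44720 at day 14. The higher sum of the fibroblast list at day 3 was that of Col1a1, which read 12.88 and 12.69, against 10.90 and 10.73 at day 0. The median difference of the 7 markers at day 3 was -0.08. Of 5 tendon markers 1 rose and 3 fell at day 1 and all 5 rose at day 10, with summed intensities of 7683 to 8200 at day 0, 8891 to 10060 at day 1 and 25950 to 26240 at day 10. The higher sum at day 1 was that of Thbs4, which read 12.90 and 12.73, against 11.79 and 11.62 at day 0. The mean log2 intensity of the 5 tendon markers was 9.71 and 9.55 at day 1, against 9.97 and 9.95 at day 0. Tnmd, the tendon membrane protein tenomodulin, rose by 3.04 ± 0.17 at day 10. The part of either cell type in the collagen receptor results was not tested.

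Of the laminin receptor chains, Itga7 was highest at day 3. Its right and left pools read 10.45 and 10.30 at day 0, 10.57 and 10.62 at day 1, 11.89 and 11.66 at day 3, 11.70 and 11.59 at day 5, 11.46 and 11.38 at day 7, 11.16 and 11.04 at day 10, and 11.02 and 11.01 at day 14. All pools after day 0 lay above both day 0 pools, with the narrowest gap at day 1. The difference at day 1 (0.22 ± 0.09, adjusted p = 0.0589) did not pass, and it did pass without the right pool of day 0 (adjusted p = 0.0451) or either pool of day 3 (adjusted p = 0.0409). At day 3 Itga7 was 2.65-fold above day 0 (1.41 ± 0.09, adjusted p = 2.42e-07), and it was still higher at day 14 (0.65 ± 0.09, adjusted p = 0.000185). Between days 1 and 3 it rose by 1.18 ± 0.09 (adjusted p = 4.71e-06), the only step past 2-fold among the 10 genes between consecutive sampled days after day 1. By level the days ran 3, 5, 7, 10, 14, 1 and 0. Day 14 over day 1 held without any single array (adjusted p = 0.003), and day 7 over day 10 (adjusted p = 0.0355) was lost without any pool of days 7, 10 or 14, up to an adjusted p of 0.221.

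Markers of muscle fibres, the main home of Itga7, moved the other way over the same days. Of 7 fibre markers all fell at day 3 and at day 7, and 1 fell at day 14 (median -0.58 at day 3). Their summed intensities were 121900 to 122700 at day 0, 84000 to 84730 at day 3, 71350 to 78350 at day 7 and 109800 to 111400 at day 14. The fall was small for Acta1, which read 14.23 and 14.19 at day 3, against 14.38 and 14.40 at day 0. Of 7 satellite cell markers 3 rose and 2 fell at day 3, and 5 rose and 2 fell at day 5, with summed intensities of 3462 to 3632 at day 0, 5855 to 5877 at day 3 and 5580 to 7267 at day 5. Much of the higher sum at day 3 was that of Myod1, which read 11.59 in both pools, against 10.33 in both at day 0. For Pax7 both pools read 8.94 at day 3, against 8.76 and 8.81 at day 0. The part of muscle fibres or of satellite cells in the Itga7 result was not tested.

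Itga6, the laminin receptor chain of endothelium, nerve and muscle precursors, was higher at all 6 days by 0.44 to 0.84. Its means for days 0, 1, 3, 5, 7, 10 and 14 were 9.92, 10.36, 10.73, 10.76, 10.73, 10.39 and 10.75, with SDs up to 0.20. Day 10 stood below the days on either side of it, and the fall between days 7 and 10 (-0.34 ± 0.10) had an adjusted p of 0.0356, lost without any pool of days 3, 7 or 10 (up to 0.211). In order of level the days ran 5, 14, 7, 3, 10, 1 and 0. Day 1 over day 0 (adjusted p = 0.00283) passed without any single array, and day 3 over day 10 (adjusted p = 0.0226) was lost without any pool of those 2 days, up to an adjusted p of 0.124. Endothelial markers went both ways, and 5 of 8 were higher and 3 lower at each of days 3, 5, 7 and 10, with summed intensities of 14930 to 15550 at day 3, against 13410 to 13680 at day 0. Of 5 Schwann cell markers 1 was higher and 2 lower at day 3. Neither was tested for a part in the Itga6 result.

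The laminin chains themselves were split. Of 10 measured, 2 rose and 4 fell at day 1, 3 rose and 3 fell at day 3, 4 rose and 4 fell at day 7, and 5 rose and 1 fell at day 14, with medians between -0.20 and 0.18. Lamb1 (2.12 ± 0.09), Lama4 (1.53 ± 0.08) and Lamc1 (0.85 ± 0.08) rose at day 7 and Lamc3 (-0.47 ± 0.12) fell. Lama2 encodes the alpha chain of adult muscle laminin and was named, after its values had been seen, as the main ligand of the Itga7 receptor. It was lower at day 1 (-0.99 ± 0.08) and day 3 (-0.76 ± 0.08, adjusted p = 1.47e-05), the day at which Itga7 was highest, and higher at day 14 (0.97 ± 0.08). Its pools read 9.70 and 9.57 at day 3, against 10.49 and 10.32 at day 0.

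The shared beta chain Itgb1 was highest at day 1. Its right and left pools read 11.40 and 11.31 at day 0, 12.46 and 12.47 at day 1, 12.23 and 12.24 at day 3, 12.28 and 12.20 at day 5, 12.22 and 12.22 at day 7, 12.04 and 12.09 at day 10, and 12.06 and 12.01 at day 14. No pool of overloaded muscle overlapped the day 0 pools. The gene was 2.15-fold above day 0 at day 1 (1.11 ± 0.06, adjusted p = 1.36e-07) and 1.60-fold above it at day 14 (0.68 ± 0.06, adjusted p = 9.20e-06). In order of level the days ran 1, 5, 3, 7, 10, 14 and 0. Day 14 over day 0 held without any single array, and day 1 over day 5 (adjusted p = 0.0162) was lost when either day 1 pool or the day 5 left pool was omitted, up to an adjusted p of 0.103.

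Itgb5, the partner of Itgav in a vitronectin receptor, changed least of the 10 genes over the days. Its means for days 0, 1, 3, 5, 7, 10 and 14 were 11.53, 11.25, 11.84, 11.87, 11.86, 11.74 and 11.45, with SDs up to 0.09. It fell at day 1 (-0.29 ± 0.07, adjusted p = 0.00652), was higher at days 3, 5 and 7 by 0.31 to 0.34, and stood at -0.09 ± 0.07 at day 14 (adjusted p = 0.359). The rise at day 10 (0.21 ± 0.07, adjusted p = 0.0325) was lost without any of the 4 pools of days 0 and 10, at an adjusted p between 0.0588 and 0.158, and with equal array medians (adjusted p = 0.0665). The days ran 5, 7, 3, 10, 0, 14 and 1 by level, and day 10 over day 0 and day 14 over day 1 (adjusted p = 0.0477) were the neighbours that passed. The second of these was lost in 12 of the 14 omissions of 1 array, up to an adjusted p of 0.226.

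**Figure D2:**
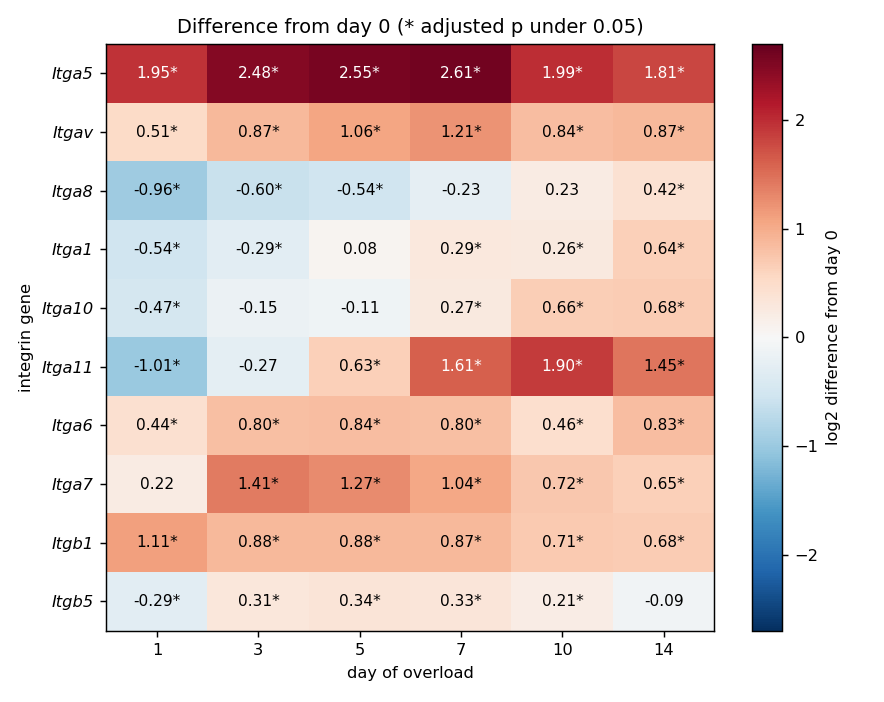
Log2 difference from day 0 (colour and number) for each integrin gene (rows) at each day of overload (columns), with an asterisk where the limma adjusted p was under 0.05. Itga5 reaches 2.61 at day 7, Itga11 runs between -1.01 at day 1 and 1.90 at day 10, and Itgb5 stays within 0.34 of day 0.

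Without the 2 pools richest in hepatocyte transcripts, the left pool of day 1 was set against the right pool of day 0, so that side and day are mixed. The baseline of the later days also lost its left pool. Itga1 then stood at 0.22 at day 7 (0.29 with all arrays) and 0.18 at day 10 (0.26 with all). Itga10 stood at 0.16 at day 7 (0.27 with all), Itgb5 at 0.18 at day 10 (0.21) and Itga11 at -0.34 at day 3 (-0.27). All 10 genes kept their direction at day 1, and 8 were called, 4 higher and 4 lower. The differences were then 1.96 for Itga5, 1.07 for Itgb1, 0.48 for Itgav, 0.39 for Itga6, 0.17 for Itga7, -0.30 for Itgb5, -0.63 for Itga1, -0.69 for Itga10, -1.10 for Itga8 and -1.25 for Itga11. The call lost was that of Itgb5 (adjusted p = 0.0547).

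RefSeq promoter windows of build GRCm38.p6 were at hand for 8 of the 10 genes, and the 250 bases before the start were searched on both strands. The sequences of 2 genes that rose at day 1 (Itga5 and Itgb1) and of 2 that fell (Itga11 and Itga10) are given 5′ to 3′ on the strand of the gene, with motif matches in capitals.
Itga5, chr15:103366792-103367041, minus strand: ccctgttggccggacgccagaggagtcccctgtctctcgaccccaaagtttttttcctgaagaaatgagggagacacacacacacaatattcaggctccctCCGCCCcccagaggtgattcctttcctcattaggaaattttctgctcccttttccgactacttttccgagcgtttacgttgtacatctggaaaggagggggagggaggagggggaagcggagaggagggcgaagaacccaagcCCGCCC
Itgb1, chr8:128685404-128685653, plus strand: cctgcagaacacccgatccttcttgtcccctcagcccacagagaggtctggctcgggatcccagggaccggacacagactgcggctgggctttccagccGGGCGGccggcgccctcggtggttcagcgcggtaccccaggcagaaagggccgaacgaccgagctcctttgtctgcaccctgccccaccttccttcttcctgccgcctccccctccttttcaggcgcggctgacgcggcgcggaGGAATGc
Itga11, chr9:62677605-62677854, plus strand: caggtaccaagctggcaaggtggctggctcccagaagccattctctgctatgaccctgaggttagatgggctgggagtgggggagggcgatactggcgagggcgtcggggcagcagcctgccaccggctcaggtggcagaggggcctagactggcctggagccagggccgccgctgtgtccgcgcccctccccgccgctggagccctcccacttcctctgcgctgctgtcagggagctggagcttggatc
Itga10, chr3:96645334-96645583, plus strand: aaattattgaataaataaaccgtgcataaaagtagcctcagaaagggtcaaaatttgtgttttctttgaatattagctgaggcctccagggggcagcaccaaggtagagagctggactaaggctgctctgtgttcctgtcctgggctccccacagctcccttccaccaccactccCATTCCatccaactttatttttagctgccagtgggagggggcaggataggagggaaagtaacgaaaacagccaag
The GC box GGGCGG was found in 3 of the 8 windows (Itga5, Itgb1 and Itgb5) and in 32.7% of all 32851 windows. The core of the TEAD site, GGAATG, which is bound by partners of the stretch-responsive coactivators Yap and Taz, was found in 2 of the 8 (Itgb1 and Itga10) and in 12.6% of all. The E-box CAGCTG, bound by MyoD, was found in 2 of the 8 (Itga1 and Itgb5) and in 13.0% of all. The AP-1 site TGANTCA, the CArG box and the TATA box TATAAA were found in 0 of the 8, and in 6.7%, 1.5% and 12.4% of all windows. Among genes with a window that rose at day 1, Itga5 and Itgb1 had the GC box and Itgav (0.51 ± 0.07) had 0 matches. Among those that fell, Itgb5 (-0.29 ± 0.07) had 3 matches, and Itga1, Itga8, Itga10 and Itga11 had 0. A link between the box and the direction at day 1 was not tested. A match is a stretch of letters and no proof of a site.

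The likeness of the courses is described for a grouping of the genes made after the values were seen. Over the 14 arrays, Pearson's r ranged from 0.767 to 0.912 among Itga1, Itga8, Itga10 and Itga11 (6 pairs). Among Itga5, Itgav, Itga6, Itga7, Itgb1 and Itgb5 (15 pairs) it ranged from 0.056, between Itgb1 and Itgb5, to 0.922, between Itga5 and Itgav. Between these groups of genes (24 pairs) it ranged from -0.558, between Itga8 and Itgb1, to 0.543, between Itgav and Itga11. The points are arrays that share days and pools, so these values describe the courses only. The grouping came from these same courses, so the comparison of day 14 with day 3 restates it and cannot support it. In the test of day 14 against day 3, Itga11 (1.72 ± 0.12), Itga8 (1.02 ± 0.11), Itga1 (0.94 ± 0.09) and Itga10 (0.83 ± 0.10) were higher, and Itga7 (-0.76 ± 0.09), Itga5 (-0.67 ± 0.08), Itgb5 (-0.40 ± 0.07) and Itgb1 (-0.20 ± 0.06) were lower. Calls made up 33.9% of all genes in that comparison, 17.6% higher and 16.3% lower. The call of Itgb1 (adjusted p = 0.0345) was lost without any pool of days 3, 10 or 14, up to an adjusted p of 0.164. Itgav stood at 0.00 ± 0.07 and Itga6 at 0.03 ± 0.10.

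**Figure D3:**
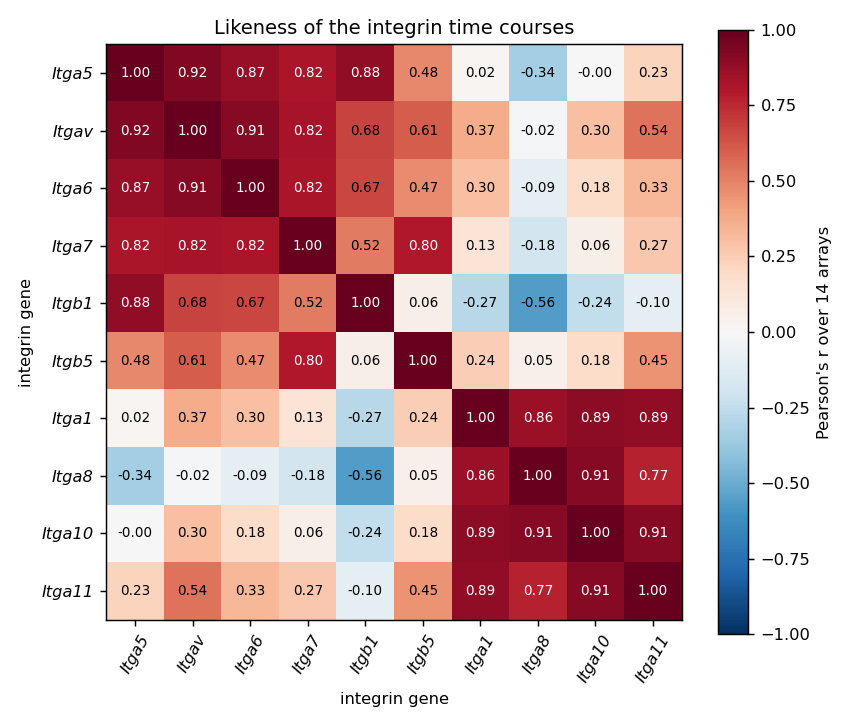
Pearson's r of log2 intensity over the 14 arrays for each pair of integrin genes (colour and number). Itga1, Itga8, Itga10 and Itga11 at the lower right reach 0.77 to 0.91 with each other, and Itga8 stands at -0.56 with Itgb1.

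Between consecutive days most of the movement came early. From day 1 to day 3, 9 of 10 integrin genes rose and Itgb1 fell (-0.23 ± 0.06), where 34.7% of all genes were called, 21.5% higher and 13.2% lower. That count was 6 if the day 1 left or the day 3 right pool was omitted. From day 3 to day 5, 2 rose, Itga11 (0.90 ± 0.12) and Itga1 (0.38 ± 0.09), against 11.2% of all genes called (6.41% higher, 4.74% lower), and 1 did without the left pool of day 3 or either pool of day 5. From day 5 to day 7 Itga11 alone rose (0.98 ± 0.12, adjusted p = 0.0053, with 1.15% of all genes called, 0.667% higher and 0.487% lower), and the count was 0 when the right pool of either day was left out. From day 7 to day 10, Itga8 (0.46 ± 0.11) and Itga10 (0.40 ± 0.10) rose and Itga5 (-0.62 ± 0.08), Itgav (-0.38 ± 0.07), Itga6 (-0.34 ± 0.10) and Itga7 (-0.32 ± 0.09) fell, with 16.5% of all genes called, 6.95% higher and 9.52% lower. Without 1 pool of day 7 or day 10 that count of 6 was between 1 and 3. From day 10 to day 14 Itga1 rose (0.39 ± 0.09) and Itgb5 fell (-0.30 ± 0.07), with 4.67% of all genes called, 2.11% higher and 2.56% lower. The count was 0 without any 1 pool of days 10 and 14, 1 without any 1 pool of days 0, 3 or 7, and 4 without either pool of day 5.

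RGD ligands and proteins of the provisional matrix, the ligands of Itga5, Itgav and Itga8, were mixed at day 1 and raised later. Of 12 measured, 4 rose and 3 fell at day 1 (median -0.08), 8 rose and 1 fell at day 3 (median 1.43), and 11 rose and 1 fell at days 5 and 7. At day 5 the leading rises were those of the matricellular proteins Tnc (4.24 ± 0.15), Postn (3.39 ± 0.17), Thbs2 (3.13 ± 0.11) and Thbs1 (2.49 ± 0.14). The 1 that fell at days 5 and 7 was vitronectin, Vtn (-1.69 ± 0.54 and -2.02 ± 0.54), a plasma protein made by liver. Its day 0 pools read 11.04 on the right and 12.48 on the left, where hepatocyte transcripts were also higher on the left.

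Inside the cell, the adaptors that link integrins to actin and to kinases were more often higher than lower. Of 28 measured, 17 rose and 8 fell at day 1, 18 rose and 6 fell at day 3, 19 rose and 5 fell at day 7, and 18 rose and 4 fell at day 14, with medians between 0.36 and 0.71. The 4 largest changes at day 1 were those of Dab2 (1.73 ± 0.07), an endocytic adaptor of beta chains, Actn1 (1.60 ± 0.10), the actin cross-linker of adhesions, Lims2 (-1.39 ± 0.08), a partner of integrin-linked kinase, and Itgb1bp2 (-1.35 ± 0.08). Itgb1bp2 encodes melusin, a muscle protein that binds the tail of the Itgb1 chain. It was also lower at day 3 (-1.08 ± 0.08) and higher at day 14 (0.58 ± 0.08), and its pools read 9.19 and 9.30 at day 1, against 10.64 and 10.56 at day 0. Lims2 was lower at all 6 days, while the kinase Ilk, named after its values were seen, was higher at all 6, by 0.37 ± 0.07 at day 1 and 1.34 ± 0.07 at day 7.

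**Figure D4:**
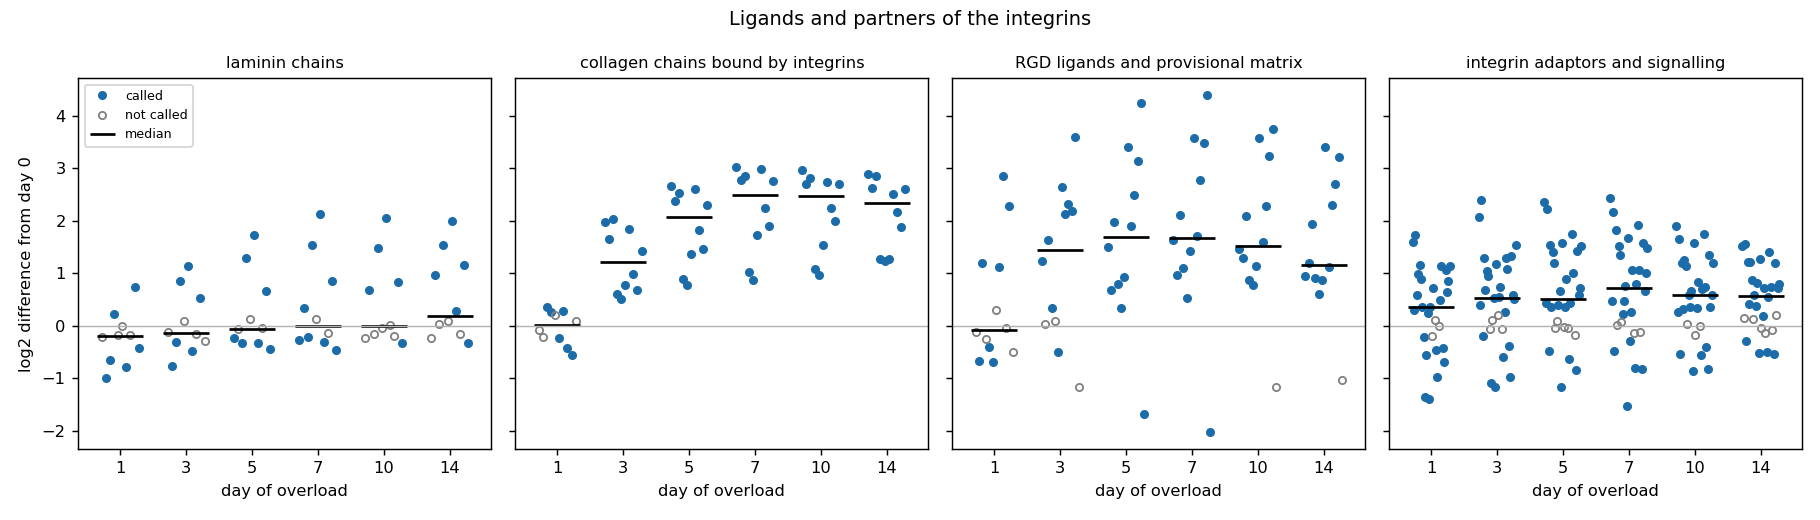
Log2 difference from day 0 of single genes (filled points called, open points not called) in 4 lists of integrin partners at each day of overload, with a bar at the median. The collagen chains are centred near 0 at day 1 and at 1.21 to 2.49 afterwards, and the laminin chains stay centred between -0.20 and 0.18.

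The genes whose levels ran most like each integrin over the 14 arrays, among 12617 genes outside the dimmest class, were found by Pearson's r as a description. For Itga5 they were Arpc1b (0.994), Ifnar1 (0.994) and Cfl1 (0.993), of which Arpc1b and Cfl1 encode a subunit of the Arp2/3 complex and cofilin, both of actin turnover. For Itgav they were Asap1 (0.997), Myof (0.994) and Lmna (0.993), and for Itgb1 they were Ehd4 (0.991), the hyaluronan receptor Cd44 (0.990) and Fubp1 (0.990). Itga11 ran with the calcium channel gene Cacna1g (0.993), Cpxm2 (0.987) and Fat4 (0.985), and Itga8 with Trib2 (0.979), Ctsf (0.974) and Ltbp4 (0.965), which binds latent TGF-beta. For Itga7 the nearest were Pxylp1 (0.964), Htra2 (0.963) and Dok1 (0.960). For Itga1, Itga6, Itga10 and Itgb5 the first in line were Daam2 (0.978), Nhlrc2 (0.972), Gask1a (0.977) and Nme4 (0.977).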

How the data were processed

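Plantaris muscle was measured on 14 arrays, 2 pools a day over 7 days, and the samples were grouped by the day in their labels. The deposited values are intensities on a linear scale, made by the authors with Partek, per the submitters' processing notes. The version and the method of summarising and scaling are not given in the sources used here. The labels give 100 and 250 ng of RNA in different places.

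The log2 of each intensity was used as deposited. Of 35556 probe sets, 21789 had 1 gene symbol, 1621 several and 12146 none in GEO's platform annotation, and the brightest probe set stood for each of 19938 genes. Limma 3.58.1 under R 4.3.3 fitted 1 mean per day (7 residual and 3.88 prior degrees of freedom) with two-sided tests for all 21 pairs of days, adjusted by Benjamini-Hochberg over all genes. The number of arrays limits precision, with a median SE of 0.0988. The fit was tested on simulated data. Promoters were searched in Python 3.11.15 and figures drawn with matplotlib 3.10.9.

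Named partner genes were up to 4 per list, those with the largest called change at the day with most calls, and the 3 genes nearest in course to each integrin. Those added outside this rule are marked, except Acta1, Acta2, Itgb6, Pax7 and Vtn, which were also named outside it. There were 16 lists, and counts are over the listed genes that were measured. The shares of all genes called at each day against day 0 are the background of these counts. The genes and lists were chosen with earlier results of these data known. Alternatives were 12 changes of scaling, filter, prior, block, threshold or arrays, and omission of each of the 14 arrays, after which a day's lone pool is assumed to vary like the other days.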

Additional observations from a re-analysis of the deposited data

How the results depend on the processing

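All 10 genes passed the F test under each alternative that gave one. None of the 60 differences from day 0 that was called, before or after a change of processing, turned its sign. With a change past 2-fold also required, 3, 2, 3, 4, 2 and 2 genes were called at days 1, 3, 5, 7, 10 and 14 against day 0, and 1, 0, 0, 0 and 0 in the steps between consecutive days. In the step to day 14 the count was 4 under quantile normalization, without the dimmest genes and with a trended prior, and 1 with the hepatocyte covariate. With side as a replicate block it was 1, and the block changed 1 other call, that of Itga7 at day 1 (0.22, adjusted p = 0.0359). Deviations of right pools from their day means correlated between days at -0.583 to 0.438, over 0.1 in 9 of 21 pairs of days. These values describe only a side effect that repeats over days. They cannot show whether the right and left pools of a day share mice. Fitting only the 2 days compared gave 6 in the step to day 3 and 1 in the step to day 5, which also had 1 with the hepatocyte covariate. The step to day 7 had 2 when both pools rich in hepatocyte transcripts (day 0 left, day 1 right) were left out. Omitting 1 array gave 9 to 10, 7 to 9, 8 to 8, 7 to 10, 7 to 9 and 8 to 9 calls at days 1, 3, 5, 7, 10 and 14 against day 0, and 6 to 10, 1 to 2, 0 to 1, 1 to 6 and 0 to 4 in the 5 steps. Apart from the 2-fold threshold and the fits with fewer arrays, the cause of these changes was not tested. Differences under about 0.3 were those whose calls changed most often.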

Other observations

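Of 9 other integrin chains of matrix adhesion, 3 rose and 2 fell at day 1, and 5 rose and 2 fell at day 3. At day 7, 6 rose and 3 fell, with a median of 0.51. The share of all genes called either way at days 1, 3 and 7 was 55.0%, 47.7% and 66.2%, and the share called higher was 20.3%, 24.2% and 28.5%. The leading rises at day 7 were those of Itga4 (1.63 ± 0.12), which binds fibronectin and the vessel protein Vcam1, and Itga9 (1.30 ± 0.11), a receptor chain for tenascin. Next came the collagen receptor chain Itga2 (0.94 ± 0.11) and Itgb3 (0.79 ± 0.09), another partner of Itgav. Itgb6 went the other way, from 11.28 and 11.18 at day 0. It read 10.09 and 10.02 at day 1 and 10.48 and 10.40 at day 7. Itga4 read 10.27 and 10.18 at day 7, against 8.76 and 8.41 at day 0. Of the 7 leukocyte integrins 5 rose and 1 fell at day 1, led by Itgam (3.86 ± 0.19) and its partner Itgb2 (2.94 ± 0.10), and 3 rose and 1 fell at day 14.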
